A study of Arabidopsis thaliana with 36 samples.

Results

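AT5G59330 and AT5G55450 are a pair of Arabidopsis thaliana genes of the lipid transfer protein family, chosen by the direction of their signal changes after plants were shifted to long days, which were opposite. They are 2 of 13286 loci named by a probe set on the ATH1 array, and each has 1 probe set, 247713_at and 248062_at. Both probe sets passed the filter on dim signals, as 14912 of all probe sets did. Because those responses selected the genes, they are described here without a test. Differences in level between the lines were not part of that choice and were tested. They use the same arrays as the responses, so their p-values are not free of the choice. Differences between the lines in the day 7 response were tested too, but are built from the responses that chose the genes.

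Lipid transfer proteins are small secreted proteins, folded around a hydrophobic cavity and held by disulfide bridges between conserved cysteines. They bind fatty acids and other lipids. Family members are known from the epidermis and its cuticle, from pollen and anthers, and from defence signalling, and many of their genes are active in the shoot apex. FLC is a MADS-box repressor of flowering, and FRI encodes an activator of FLC.

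The apical region of soil-grown plants was sampled in 3 lines, all in a Col background, after 0, 3, 5 and 7 long days that followed short days. The line called FRI holds the Sf-2 allele of FRI, and its FLC is functional. In the line FRI flc-3 this FRI allele is combined with a fast-neutron allele of FLC, named flc-3. The third line, flc-3 in Col-0, holds that FLC allele only. Each of the 12 groups had 3 arrays, and nothing states whether these came from separate pools of plants, so the spread between them may be technical. FRI was labelled vegetative on all days. FRI flc-3 was labelled as in transition to flowering from day 3 on, and so was flc-3 at days 3 and 5 and for replicate 1 of the 3 arrays at day 7. No group stayed in short days alongside, so long days and added age cannot be told apart.

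Values are MAS5 signals on a linear scale, with an array median between 40.4 and 43.1, and the number of arrays limits the precision. A signal is called dim below the 40th percentile of its array, which lay between 19.8 and 24.8. Within groups the lowest correlation between arrays was 0.979, in FRI flc-3 at day 0. Of the marker genes listed for the tissue, LAS of the shoot meristem was above this level in part of the arrays and CLV3 stayed dim, with group means of 9.92 to 13.8 at days 0 and 7. None of the 10 epidermis markers had a named probe set. Leaf mesophyll markers had 3 of 8 members measured, and the arrays of FRI had summed signals between 4036 and 4506 at day 0 and between 3154 and 3539 at day 7. Those of FRI flc-3 lay between 3857 and 4197 at day 0 and between 2598 and 2920 at day 7. Those of flc-3 lay between 4414 and 5059 and then between 2768 and 2832. Their part in the results below was not tested. In such bulk tissue, fewer cells of a type and less RNA per cell cannot be told apart.

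AT5G59330 started from a high signal in all 3 lines, fell to a mean of 315 by day 7 in FRI, where FLC is functional, and became dim in both lines with mutant FLC. At day 0 the 3 arrays of FRI had signals of 606, 584 and 623, those of FRI flc-3 had 619, 642 and 638, and those of flc-3 had 585, 624 and 590.1. The day 0 groups overlapped, and their means lay at the 95.7th to 96.0th percentile of the arrays.

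In FRI the signal of AT5G59330 was not lower by day 3, when the arrays had 657, 613 and 603. It then had 414, 422 and 453 at day 5, and 314, 315 and 316 at day 7. The day 5 and day 7 arrays lay below all day 0 arrays and did not overlap with each other. The group means were 604 ± 19.3 (SD, n = 3) at day 0, 624 ± 29.0 at day 3, 430.0 ± 20.5 at day 5 and 315 ± 0.84 at day 7. The mean at day 0 was thus 1.92 times that at day 7, a log2 change of -0.93.

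In FRI flc-3 the arrays of day 3 were already below those of day 0, at 391, 408 and 428. They had 95.6, 111 and 128 at day 5, and 6.42, 3.26 and 6.19 at day 7. The step from day 5 to day 7 was the largest, a log2 change of -4.06 after -1.87 from day 3 to day 5 and -0.63 from day 0 to day 3. From a mean of 633 ± 12.6 at day 0 the signal came to 5.29 ± 1.77 at day 7, a log2 change of -6.56. All 3 arrays of day 7 were dim, at a mean percentile of 20.9, so the size of the fall is best read as a bound. With the 40th percentile of each array in place of the dim signals, the level at day 0 was at least 28.4-fold that at day 7.

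In flc-3 the signal also became dim by day 7. The arrays had 408, 395 and 462 at day 3, 181, 183 and 195 at day 5, and 14.9, 14.3 and 15.7 at day 7. The day 7 array labelled as in transition had 14.9, between both arrays labelled vegetative. The mean went from 599.7 ± 21.5 at day 0 to 15.0 ± 0.68 at day 7, a log2 change of -5.18, and at least 26.6-fold with the 40th percentile as the lower value. The steps were -0.51, -1.17 and -3.50 on the log2 scale, so the last was again the largest.

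Ordered by level, AT5G59330 fell into 4 highest groups that overlapped from one to the next, at 633 in FRI flc-3 at day 0, 624 in FRI at day 3, 604 in FRI at day 0 and 599.7 in flc-3 at day 0. FRI at day 5 with 430.0, flc-3 at day 3 with 422 and FRI flc-3 at day 3 with 409 followed and overlapped likewise. From there no neighbours in the order overlapped: FRI at day 7, flc-3 at day 5, FRI flc-3 at day 5, flc-3 at day 7 and FRI flc-3 at day 7. The arrays of FRI after 5 long days thus overlapped with those of both other lines after 3.

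**Figure D1:**
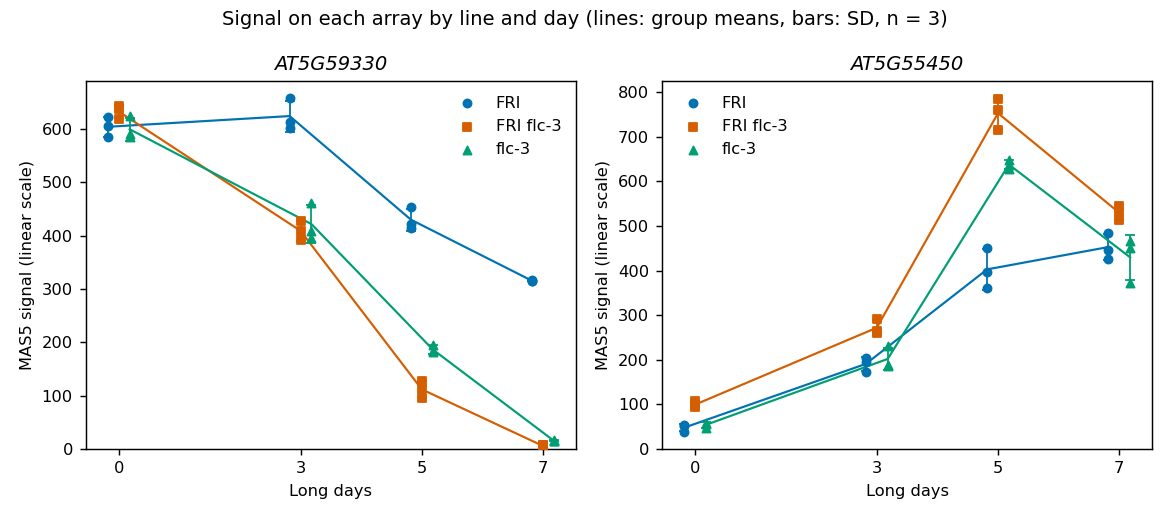
MAS5 signal (linear scale) of AT5G59330 and AT5G55450 on each of the 36 arrays against the number of long days, by line. Points are arrays, lines join group means and bars are the SD of 3 arrays. AT5G59330 ends at 315 in FRI and at 5.29 and 15.0 in FRI flc-3 and flc-3, and AT5G55450 peaks at day 5 in both flc-3 lines.

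AT5G55450 rose in all 3 lines, with or without functional FLC, and in both lines with mutant FLC its highest level came at day 5. At day 0 the arrays of FRI had signals of 51.5, 37.5 and 52.9, and those of flc-3 had 55.3, 58.8 and 46.8. Those of FRI flc-3 had 96.0, 93.2 and 108 and lay above all arrays of the other lines.

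In FRI the signal of AT5G55450 went to 203.9, 194 and 173 at day 3, to 360.2, 396 and 451 at day 5 and to 447, 426 and 485 at day 7. The rise came early, with no overlap between days 0, 3 and 5, while the arrays of days 5 and 7 overlapped. The means were 47.3 ± 8.48 (SD, n = 3) at day 0, 190.5 ± 15.6 at day 3, 403 ± 45.9 at day 5 and 453 ± 30.0 at day 7. The log2 change by day 7 was 3.23, a ratio of means of 9.57. Of that change, 1.99 on the log2 scale was reached by day 3, when AT5G59330 had a change of 0.05 in the same plants.

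In FRI flc-3 the arrays had 259.9, 264 and 291 at day 3, 759.8, 784 and 715 at day 5 and 546, 512 and 530.5 at day 7. All 3 arrays of day 7 were below those of day 5 and above those of day 3. The mean went from 99.0 ± 7.66 at day 0 through 272 ± 16.9 and 753 ± 34.6 to 529.5 ± 16.7. This was a log2 change of 2.91 by day 5 and 2.40 by day 7, with a last step of -0.51.

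In flc-3 the arrays had 188, 186 and 231 at day 3, 648, 636 and 629 at day 5 and 467, 450.1 and 371 at day 7. Here too every array of day 7 was below those of day 5. The mean went from 53.7 ± 6.18 at day 0 through 202 ± 25.6 and 638 ± 9.96 to 429 ± 51.0, a log2 change of 3.54 by day 5 and 2.96 by day 7. AT5G55450 was not dim on any array.

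In the order of levels, AT5G55450 had 753 in FRI flc-3 at day 5, 638 in flc-3 at day 5 and 529.5 in FRI flc-3 at day 7, with no overlap between these. FRI at day 7, flc-3 at day 7 and FRI at day 5 followed with 453, 429 and 403 and overlapped from one to the next. FRI flc-3 at day 3 stood alone at 272, flc-3 and FRI at day 3 overlapped at 202 and 190.5, and FRI flc-3 at day 0 stood alone at 99.0. The lowest were flc-3 and FRI at day 0 with 53.7 and 47.3, which overlapped.

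For both genes and in each of the lines, the arrays of day 7 did not overlap with those of day 0. Over all tested probe sets, the share called between these days was 26% for FRI, 41% for FRI flc-3 and 46.2% for flc-3. A call is an adjusted p under 0.05 in limma's test with Benjamini-Hochberg adjustment. Since these contrasts chose the genes, nothing is read from the count.

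**Figure D2:**
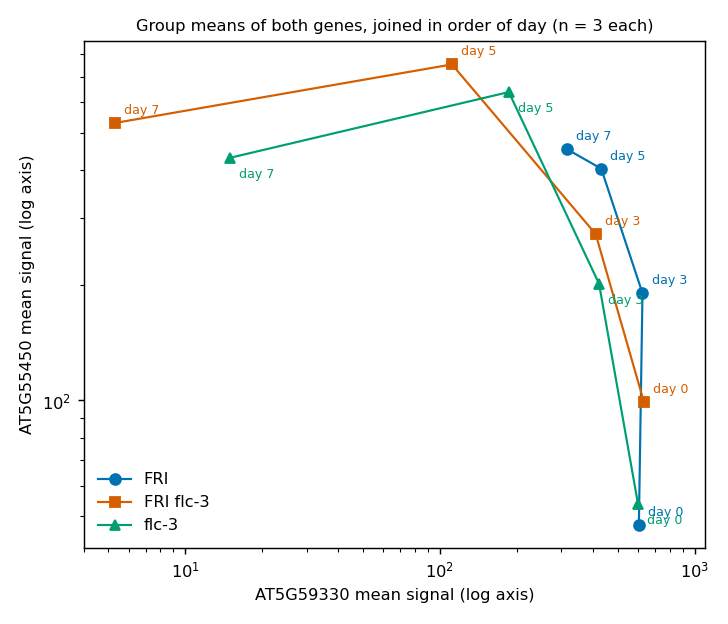
Mean signal of AT5G55450 against that of AT5G59330 for the 12 groups (3 arrays each, both axes logarithmic), joined in order of day within each line. The first 3 long days move all lines mainly upward, and the last step moves both flc-3 lines far to the left while FRI stays at 315 for AT5G59330.

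FRI and FRI flc-3 share the FRI allele and differ by the state of FLC. From day 3 on they also differ by stage label, so FLC state and stage cannot be told apart there. AT5G59330 did not pass the test at day 0 and was increasingly higher in FRI on the later days. At day 0 the log2 difference was -0.07 ± 0.11 (SE, 3 against 3 arrays, adjusted p = 0.891), with a 95% confidence interval from -0.29 to 0.16. It was 0.61 ± 0.11 at day 3 (adjusted p = 5.6e-04), 1.94 ± 0.11 at day 5 (adjusted p = 1.3e-15) and 5.55 ± 0.11 at day 7 (adjusted p = 2.5e-29). On each of these 3 days the arrays of the lines did not overlap. With the dim signals of FRI flc-3 replaced by the 40th percentile, FRI was at least 14.2-fold higher, and with an offset of 32 before the logarithm the log2 difference was 3.22.

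AT5G55450 differed the other way, lower in FRI, and did so before any long day. At day 0 the log2 difference was -1.05 ± 0.11 (adjusted p = 2.5e-08), with means of 47.3 in FRI and 99.0 in FRI flc-3. The line flc-3, also with mutant FLC, had a mean of 53.7 at day 0, and its arrays overlapped with those of FRI. It was -0.51 ± 0.11 at day 3 (adjusted p = 0.00373) and -0.91 ± 0.11 at day 5 (adjusted p = 6.4e-08). Which of days 0 and 5 had the wider difference turned with the offset, with -0.73 and -0.86 at an offset of 32. At day 7 it was -0.23 ± 0.11 and did not pass (adjusted p = 0.126), with an interval from -0.45 to -0.01, although the arrays did not overlap. In a fit to only the 6 arrays of that day it passed (adjusted p = 0.0473). Calls over all probe sets in this pair of lines made up 1.13% at day 0, 2.15% at day 3, 11.9% at day 5 and 23.3% at day 7. A call at day 0, as for AT5G55450, was therefore less common than one at day 7, as for AT5G59330.

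As means over the 4 days, AT5G59330 was higher in FRI by 2.01 ± 0.05 (12 against 12 arrays, adjusted p = 3.9e-25) and AT5G55450 was lower at -0.67 ± 0.05 (adjusted p = 2.3e-12). The comparison called 21.2% of probe sets. For AT5G59330 this mean joins a day 0 difference near 0 with a large one at day 7, so it stands for no single day.

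FRI flc-3 and flc-3 both lack functional FLC and differ by the FRI allele. At day 7 they also differ by stage label, as only replicate 1 of flc-3 was labelled as in transition. FRI allele and stage cannot be fully told apart on that day. AT5G55450 was higher in FRI flc-3 at day 0, and AT5G59330 was lower in FRI flc-3 at days 5 and 7. For AT5G55450 the log2 difference at day 0 was 0.87 ± 0.11 (adjusted p = 3.1e-06), with means of 99.0 and 53.7. It was 0.43 ± 0.11 at day 3, at an adjusted p of 0.0499 that missed the threshold in 7 of the other settings and without any 1 of 24 arrays. At days 5 and 7 it was 0.24 and 0.31 and did not pass (adjusted p = 0.197 and 0.10), though no arrays overlapped. These intervals ran from 0.02 to 0.46 and from 0.09 to 0.53.

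For AT5G59330 the difference was 0.08 ± 0.11 at day 0 and -0.04 ± 0.11 at day 3, and neither passed (adjusted p = 0.796 and 0.952, intervals from -0.15 to 0.30 and from -0.27 to 0.18). It was -0.74 ± 0.11 at day 5 (adjusted p = 2.8e-05), with means of 112 and 186. At day 7 it was -1.30 ± 0.11 (adjusted p = 3.0e-10), with 5.29 against 15.0. As both signals were dim at day 7, this size depended on the offset and was -0.54 and -0.33 at offsets of 16 and 32, still called (adjusted p = 4.4e-06 and 0.00109). Calls over all probe sets made up 1.9% at day 0, 0.53% at day 3, 4.64% at day 5 and 3.9% at day 7.

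Averaged over the days, AT5G55450 was higher in FRI flc-3 by 0.46 ± 0.05 (12 against 12 arrays, adjusted p = 2.4e-07) and AT5G59330 was lower at -0.50 ± 0.05 (adjusted p = 7.1e-08), or -0.30 and -0.23 at offsets of 16 and 32. This comparison called 4.24% of probe sets. Among the 3 lines, FRI flc-3 had the lowest mean of AT5G59330 at days 3, 5 and 7, though its arrays overlapped with flc-3 at day 3. It had the highest mean of AT5G55450 on each day. As given above, not all of these differences were called.

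**Figure D3:**
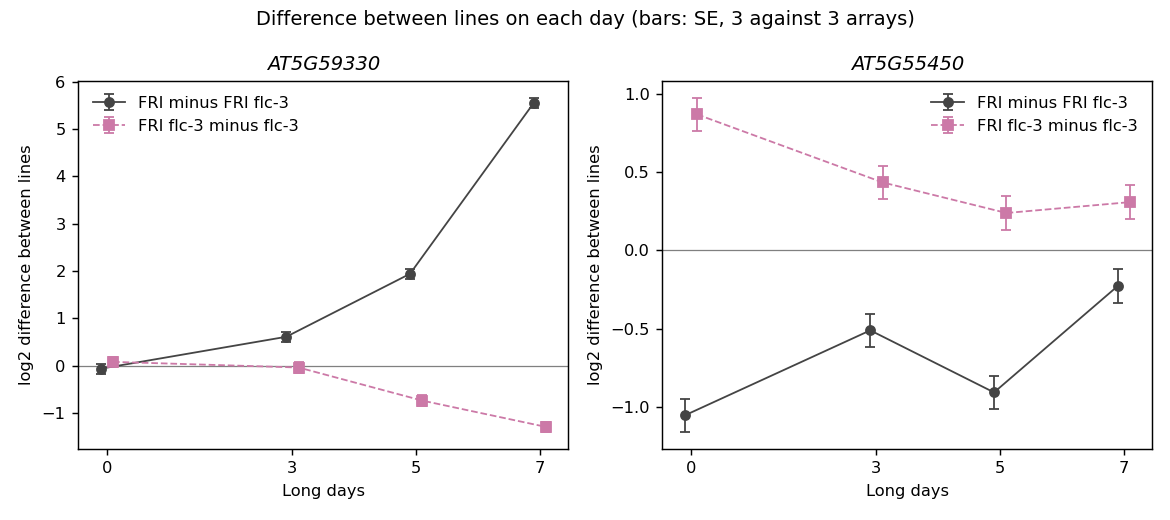
Log2 difference in signal between lines on each day for both genes, as FRI minus FRI flc-3 and as FRI flc-3 minus flc-3 (bars: SE, 3 against 3 arrays, vertical scales differ between panels). For AT5G59330 the first difference goes from -0.07 at day 0 to 5.55 at day 7, while for AT5G55450 the differences at day 0 are -1.05 and 0.87.

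Whether the day 7 response itself differed between lines was tested as an interaction. For both genes this contrast is built from the responses that chose them, so its p-values are not free of that choice. For AT5G59330 the log2 response in FRI was higher than that in FRI flc-3 by 5.62 ± 0.15 (adjusted p = 2.9e-24), or 3.28 at an offset of 32. The response of FRI flc-3 was lower than that of flc-3, at -1.38 ± 0.15 (adjusted p = 1.1e-06), or -0.62 and -0.41 at offsets of 16 and 32. The signals of both FRI flc-3 and flc-3 were dim at day 7. With the 40th percentile in their place, a mean of 20.7 and 21.0, the bounds on their falls were at least 28.4-fold and 26.6-fold. As the lower value is nearly the same by construction, these bounds cannot show whether the falls differed. For AT5G55450, FRI had a response higher than FRI flc-3 by 0.83 ± 0.15 (adjusted p = 1.1e-04), or 0.51 at an offset of 32. That of FRI flc-3 was lower than that of flc-3 at -0.56 ± 0.15 (adjusted p = 0.036). This last call was lost at offsets of 16 and 32 (adjusted p = 0.0717 and 0.137). FRI flc-3 started from the highest day 0 level of AT5G55450, and its rise was the smallest as a ratio, though not as a difference in signal. The tests called 12.7% of probe sets for FRI against FRI flc-3 and 2.84% for FRI flc-3 against flc-3.

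Other lipid transfer protein loci were examined for the same days from a list of 94, of which 43 had a named probe set and 17 were tested. They hold no more than a part of the family, with 1 of 15 type I loci and 1 of 4 further type IV loci tested. At day 7 in FRI, 2 of the 17 rose and 5 fell, or 11.8% and 29.4%, against 13.9% higher and 12.1% lower over all probe sets. In FRI flc-3, 5 rose and 6 fell, or 29.4% and 35.3%, against 21.3% and 19.7%. In flc-3, 2 rose and 8 fell, or 11.8% and 47.1%, against 25.3% and 20.9%. The median log2 change of the 17 was -0.04, -0.38 and -0.42 in FRI, FRI flc-3 and flc-3, with medians of 0.03, -8e-04 and 0.03 over all tested probe sets.

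The type I locus, AT5G01870, fell with AT5G59330. Its signal went from 1709 to 1453 in FRI, a log2 change of -0.24 ± 0.08 (SE, adjusted p = 0.0187). In FRI flc-3 it had 1551 and then 422, a change of -1.88 ± 0.08 (adjusted p = 1.3e-20), and in flc-3 it had 1406 and then 502, at -1.48 ± 0.08 (adjusted p = 1.1e-17). As for AT5G59330, its response in FRI differed from that in FRI flc-3, by 1.65 ± 0.11 (adjusted p = 5.5e-14). The other type IV locus, AT5G48490, fell as well, with changes of -0.27, -0.56 and -0.72 in the 3 lines, opposite to AT5G55450, which was listed in the same type.

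Among further loci of the list that fell in FRI flc-3, AT5G05960 changed by -2.10, AT4G33550 by -1.52, AT4G22490 by -1.33 and AT3G18280 by -1.26. Their changes in FRI were -0.09, -0.14, -0.04 and 0.14 and did not pass (adjusted p from 0.121 to 0.754). For these 4 the difference between the responses was itself called, at 2.01, 1.38, 1.30 and 1.41, with adjusted p from 1.7e-13 to 5.6e-05. AT5G05960 and AT4G33550 were dim at day 7 in both flc-3 lines, with mean signals from 6.94 to 12.6. In FRI the means of AT4G33550 were dim at days 0 and 7, at 20.2 and 18.2. At day 0 they were above the dim level in FRI flc-3 and flc-3, at 31.9 and 24.7. Its falls there and its difference in response may thus not be independent of the filter. AT4G12490 and AT2G10940 were called lower in FRI, at -1.37 and -0.77, and did not pass in FRI flc-3, at -0.53 and -0.03. In flc-3 they changed by -1.32 and -0.42, both called. Their responses in FRI differed from FRI flc-3 by -0.83 (adjusted p = 0.276) and -0.74 (adjusted p = 0.00461). AT4G12490 was dim at day 7 in FRI, at 12.5. The FRI flc-3 means of this locus were already dim at day 0, at 13.2, and had 8.45 at day 7. A fall could therefore not be judged there, and the difference in response cannot show whether these lines differed. Its day 7 mean was dim for flc-3 as well, at 9.74.

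Of the loci that rose, AT1G48750 had the largest change in FRI flc-3, from 73.7 to 365, at 2.29 ± 0.09 (adjusted p = 7.2e-21). It changed by 2.36 in flc-3 and by 0.67 in FRI, and its response in FRI was lower than in FRI flc-3, at -1.62 ± 0.13 (adjusted p = 5.3e-12). AT5G55450, in contrast, had the higher log2 response in FRI of these lines, though not as a difference in signal. It went from 47.3 to 453 in FRI and from 99.0 to 529.5 in FRI flc-3. AT1G62500 rose in all lines, by 0.64, 0.77 and 0.75. AT1G12100, AT2G45180 and AT1G62790 rose in FRI flc-3 by 0.81, 0.56 and 0.26. In flc-3 they changed by -0.21, 0.03 and 0.03, which did not pass (adjusted p = 0.372, 0.711 and 0.714). Their responses in FRI flc-3 exceeded those in flc-3 by 1.02, 0.53 and 0.23 (adjusted p = 0.0286, 8.7e-04 and 0.177). Of these, AT2G45180 fell in FRI, at -0.79, and the others had changes of 0.34 and 0.15 there that did not pass (adjusted p = 0.186 and 0.0951). The means of AT1G12100 at days 0 and 7 were dim except in FRI flc-3 at day 7. There it went from 12.9 to 23.4, near the dim level, so its rise may not be independent of the filter.

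**Figure D4:**
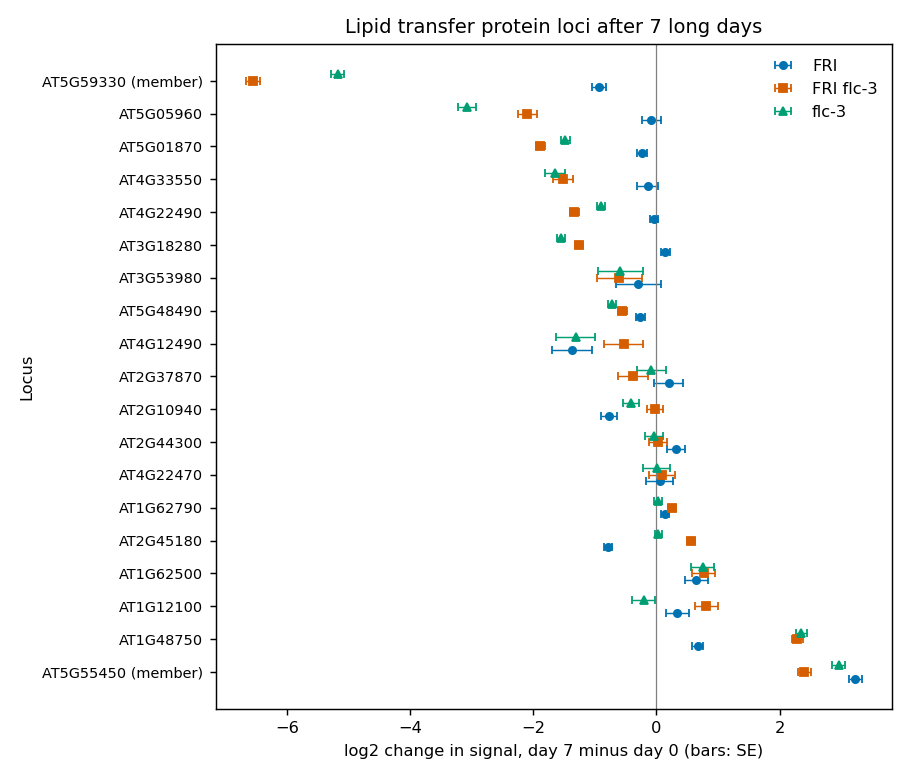
Log2 change in signal from day 0 to day 7 in each line for the 17 other tested lipid transfer protein loci and for AT5G59330 and AT5G55450 (bars: SE). AT5G59330 has the lowest changes in both flc-3 lines, at -6.56 and -5.18, and AT5G55450 the highest in each line, at 3.23, 2.40 and 2.96.

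The 2 genes were not mirror images of each other. Over the 36 arrays their log2 signals had a Pearson correlation of -0.57, given as a description, since arrays of a group share line and day. By the same measure over 8040 other named loci, the loci most like AT5G59330 were AT5G61660, AT5G38320, AT5G64110, PYK10 and AT4G22490, with correlations from 0.96 to 0.98. PYK10 encodes a beta-glucosidase of endoplasmic reticulum bodies. AT4G22490, a hybrid proline-rich locus of the lipid transfer protein list, had 2696 at day 0 and 1068 at day 7 in FRI flc-3.

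The loci most opposed to AT5G59330 were AT2G34810, AT2G17280, AT3G62630, AT5G37540 and AT3G13662, from -0.97 to -0.93. AT2G17280 had 18.6 at day 0 and 193 at day 7 in FRI flc-3, against 20.4 and 31.7 in FRI. Most like AT5G55450 were AT4G24110, AT1G10980, XTH32, AT1G53070 and AT5G22460, from 0.95 to 0.97. XTH32 encodes a xyloglucan endotransglucosylase/hydrolase of the cell wall. Most opposed to AT5G55450 were AT1G29670, AT4G29020, ZW9, EXPA15 and AT2G29360, from -0.95 to -0.93. EXPA15 encodes an expansin, a protein that loosens cell walls, and went from 394 to 228 in FRI. Over the 12 group means all of these correlations were at least as strong in size, between 0.95 and 0.99.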

How the data were processed

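RNA of 36 apical samples was hybridized to ATH1 arrays, 1 per sample. The deposited values are signal intensities per probe set. Per the submitters' processing notes, MAS5 produced them. Version, scaling target and detection calls are not given in the sources used here. Of 22810 probe sets, 64 controls were left out.

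Signals were transformed as log2(signal + 1.62), the offset being the 10th percentile of all values, without further scaling. A probe set was tested where it exceeded the 40th percentile of the array on at least 3 arrays, which left 14912. limma 3.58.1 in R 4.3.3 fitted 1 mean per group (24 residual degrees of freedom) with eBayes and an intensity trend. P-values were two-sided and adjusted by Benjamini-Hochberg over the 14912 probe sets, called under 0.05. Confidence intervals use the residual degrees of freedom.

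Names came from GEO's platform annotation, which gives 1 gene for 13513 probe sets, and 13436 of these matched a RefSeq locus (TAIR10.1, used for names and gene order only). The annotation table lists no probe set for the relatives LTP3 and LTP4. No sequences were at hand, so signal that relatives could add to a probe set was not examined. RefSeq's table held no descriptions from which to widen the family list. Named were both genes, tested loci of their types, tested neighbours within 10 gene models, up to 6 further called family loci per direction by change in FRI flc-3, and the 5 most and least correlated loci. AT4G12490 and AT2G10940 were added as family loci called lower in FRI. Genes and lists were chosen with earlier results of these data known.

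Alternatives were other offsets and filters, quantile normalization, 75th percentile scaling, array weights, no trend, a replicate block, the compared arrays fitted alone and leaving out each array. The fit was tested on simulated data. Replicates with the same number did not deviate together: the mean correlation of deviations was 0.002, and in none of 66 pairs of groups was every correlation over 0.1.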

Additional observations from a re-analysis of the deposited data

Results flagged for a closer look

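The day 7 response differed between lines for both genes, by the interaction tests given above, whose p-values are not free of the choice of the genes. For AT5G59330 the log2 response in FRI exceeded that in FRI flc-3 by 5.62, and FRI flc-3 stood at -1.38 against flc-3. For AT5G55450 these differences were 0.83 and -0.56. Leaf mesophyll markers fell in each line, RCA by log2 changes of -0.55, -0.72 and -0.75 in FRI, FRI flc-3 and flc-3. Of 7 flower primordium genes listed, only UFO had a named probe set. Its log2 changes were 2.06 and 3.16 in FRI flc-3 and flc-3, and 0.16 in FRI (adjusted p = 0.819). In FRI flc-3 and flc-3 its mean signals went from 2.52 and 1.34 to 15.8 and 24.7. All but the last of these means were dim. UFO passed the filter through the flc-3 arrays of day 7, at 24.1 to 25.6, so its rise there is not independent of the filter. The part of these markers in the differences was not tested.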

How the results depend on the processing

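All tested differences of AT5G59330 kept their direction and call under every alternative run, except that the direction of its uncalled day 3 difference between FRI flc-3 and flc-3 turned without flc-3 day 3 replicate 3. For AT5G55450, the day 3 difference between FRI flc-3 and flc-3 (0.43, adjusted p = 0.0499) lost its call at an offset of 1 (0.43, adjusted p = 0.0525), with quantile normalization (0.43, 0.0572), 75th percentile scaling (0.43, 0.0506), no filter (0.43, 0.0807), the replicate block (0.43, 0.057), no trend (0.43, 0.0984) and only the arrays compared (0.43, 0.0863). Leaving out single arrays gave 0.38 to 0.53 and ended the call for 24 of the 36, with the highest adjusted p, 0.247, without flc-3 day 3 replicate 2. The arrays whose loss kept the call were FRI day 0 replicates 1 to 3, FRI day 3 replicate 3, FRI day 5 replicates 1 and 3, FRI flc-3 day 0 replicate 3, flc-3 day 0 replicates 2 and 3, flc-3 day 3 replicate 3, and flc-3 day 7 replicates 1 and 3. The difference in its day 7 response between these lines (-0.56) was not called at offsets of 16 and 32 (-0.43 and -0.32, adjusted p = 0.0717 and 0.137), with no filter (adjusted p = 0.0545), no trend (0.0573) or only the arrays compared (0.0984), each at -0.56. Over single arrays it ran from -0.66 to -0.47, and the call was lost without FRI flc-3 day 0 replicate 3, FRI flc-3 day 7 replicates 2 or 3, flc-3 day 0 replicate 3, or flc-3 day 7 replicates 1 or 2 (adjusted p from 0.0634 to 0.105). Calls were gained at day 7 between FRI and FRI flc-3 with only the arrays compared (-0.23, adjusted p = 0.0473), and between FRI flc-3 and flc-3 at day 5 with only the arrays compared (0.24, 0.0224) and at day 7 at an offset of 32 (0.29, 0.0497). The cause of these changes was not tested.

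The day 7 changes of AT5G59330 were -4.93 and -4.16 in FRI flc-3 and -4.31 and -3.75 in flc-3 at offsets of 16 and 32, and -0.87 in FRI at 32. In flc-3 quantile normalization gave -5.04 and 75th percentile scaling -5.24. Those of AT5G55450 were, at these offsets, 2.90 and 2.62 for FRI, 2.25 and 2.10 for FRI flc-3 and 2.67 and 2.43 for flc-3. A larger offset shrinks a difference by construction. The count of family loci lower in FRI was 8 in place of 5 with no filter, which tests more loci. The count of those higher in FRI ran from 1 to 3 over single arrays, with 1 without FRI day 7 replicate 1. The replicate block ended no other call. Dim signals of AT5G59330 at day 7 limit the size of its fall to a bound.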

Other observations

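On chromosome 5, in the gene order of RefSeq, AT5G59330 lies next to LTP3 and LTP4 on one side and WOX2 on the other. Of 20 gene models around it, 3 were tested. AT5G59305, beyond LTP4, rose in each line, by log2 changes of 2.03 ± 0.30 (SE), 2.46 ± 0.30 and 2.43 ± 0.30 in FRI, FRI flc-3 and flc-3 (adjusted p = 2.9e-06, 2.8e-08 and 3.0e-08), from dim signals of 6.14 to 6.47. AT5G59305 passed the filter through arrays of later days only, so its rise is not independent of the filter. AT5G59350 changed by -0.54, -0.46 and -0.26, called in each line. AT5G59360 had changes of -0.02 and 0.02 in FRI and FRI flc-3 that did not pass (adjusted p = 0.957 and 0.951) and was lower in flc-3, at -0.64 (adjusted p = 0.00152). Around AT5G55450, 2 of 20 gene models were tested. AT5G55380 and AT5G55400 fell in FRI flc-3 at -0.38 and -0.75 and in flc-3 at -0.34 and -0.54, and their changes of -0.04 and -0.31 in FRI did not pass (adjusted p = 0.844 and 0.0802).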
